A study of Mus musculus with 11 samples.

Results

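The nuclear genes that encode the mitochondrial respiratory chain were described in splenic classical dendritic cells (cDCs) of mice, complex by complex. The members are the genes whose platform symbol starts with Nduf, Sdha, Sdhb, Sdhc, Sdhd, Uqcr, Cyc1, Cox4i, Cox5, Cox6, Cox7, Cox8 or Atp5, without Cox6a2, each read from its brightest probe set that carries a single symbol. This gave 93 of 19938 genes: 41 of complex I, 8 of complex II, 9 of complex III, 18 of complex IV and 17 of complex V. They comprise 74 subunits, 11 assembly factors that share a Ndufaf or Sdhaf prefix, 7 tissue-restricted or inducible isoforms and the supercomplex factor Cox7a2l. Ndufa4 and Ndufa4l2 carry a complex I prefix and were read with complex IV, where Ndufa4 is now placed. Cox7c and Ndufb4 were measured only by probe sets shared with other symbols, and the subunits encoded by mitochondrial DNA were not analysed here. Of the 93 members, 88 averaged above the median gene level of 5.53 on the log2 scale.

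The respiratory chain lies in the inner mitochondrial membrane. Complex I takes electrons from NADH and complex II from succinate, complex III passes them from ubiquinol to cytochrome c, and complex IV hands them to oxygen. Complexes I, III and IV pump protons, and complex V, the ATP synthase, lets them flow back to make ATP. Dendritic cells draw on this respiration at rest and shift towards glycolysis when activated by many microbial ligands.

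All mice were C57BL/6 and carried Zeb2(fl/fl), a loxP-flanked allele of the transcriptional repressor gene Zeb2. The groups were CD24+ cDCs of Zeb2(fl/fl) mice (3 arrays, here control CD24+), CD172a+ cDCs of Zeb2(fl/fl) mice (4 arrays, control CD172a+) and CD172a+ cDCs of Zeb2(fl/fl);CD11c-Cre(tg) mice (4 arrays, here labelled Zeb2-deficient). No treatment and no age is given. Cre is driven by the CD11c promoter, which is active across dendritic cells and in some macrophages and other leukocytes, and the controls carry no Cre. Values are log2 expression made with robust multi-array averaging (RMA), per the submitters' notes, and 1 unit is a 2-fold difference. The number of arrays limits the precision. Because RNA was taken from sorted populations, fewer cells with a transcript and less RNA per cell cannot be told apart, and a difference is one of transcript, not of protein or respiration.

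Markers went with the sort labels. Xcr1 of the cDC1 lineage averaged 10.89 in control CD24+, 5.47 in control CD172a+ and 5.69 in labelled Zeb2-deficient cells, and Tlr7 of the cDC2 lineage 3.21, 8.35 and 8.79. The 9 measured B cell markers averaged 4.89 in control CD24+, 5.06 in control CD172a+ and 5.52 in labelled Zeb2-deficient cells. In the same order Ms4a1 averaged 6.55, 6.20 and 8.22 and Fcer2a 4.07, 4.43 and 6.48. Cd79b averaged 6.07, 7.23 and 7.10 and Fcrla 6.54, 5.61 and 6.03, while Cd79a lay between 3.10 and 3.38. Zeb2 averaged 5.26 ± 0.23 (SD, n = 3) in control CD24+, 8.33 ± 0.19 (SD, n = 4) in control CD172a+ and 8.79 ± 0.44 (SD, n = 4) in labelled Zeb2-deficient cells (limma adjusted p = 0.998 for the latter pair), so the array did not show lower Zeb2 in the group labelled as lacking it. No source used here gives the position of this probe set in the gene, so it may or may not read the deleted exons.

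The arrays also fall into 2 sets that cross the groups, defined by the sign of the second principal component over all genes (34.2% of the variance). The first set holds control CD24+ replicate 1 and replicates 1 and 2 of both CD172a+ groups (5 arrays), and the second holds the other 6. The labels name no such split. Xist, transcribed from the inactive X chromosome of females, lay from 10.33 to 10.84 in the first set and from 3.87 to 4.70 in the second, and the Y-linked gene Eif2s3y from 2.77 to 3.19 and from 7.78 to 9.15. Splenic macrophage markers averaged 5.13 to 5.88 per array in the first set and 5.77 to 7.20 in the second. In limma with group as a term 8 of 10 were higher in the second set and 1 lower, beside 14% and 16% of all genes. The sets were defined from these same values, so the count only describes them, and fits blocked by set may understate the spread. Members moved with the array set, so the main results are given first for the 11 arrays together and then from a fit blocked by array set, with within-set values for the members described most fully. The part of sex, other cells or handling in the set difference was not tested.

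Ndufaf6, Cyc1, Ndufb9 and Ndufaf2 were higher in control CD24+ than in control CD172a+ cDCs, and the other 89 members did not pass over all arrays. The question is how the cDC subsets differ. Of the 93 members, 4 were higher and 0 lower at a limma adjusted p below 0.05, which is 4.3% and 0% of them, beside 3.25% and 3.16% of all genes. The groups did not overlap for 16 members on the higher side and 1 on the lower (17.2% and 1.08%), beside 7.13% and 7.43% of all genes. The difference was above 0 for 82 of 93 members (88.2%) against 46.1% of all genes. The median difference was 0.25 over the members and -0.02 over all genes. With the array set as a block, 31 members were higher and 1 lower (33.3% and 1.08%), beside 8.55% and 6.9% of all genes, and all 4 first calls were kept. The median difference within the first set was 0.26 and within the second 0.32. The first set holds a single control CD24+ array, and leaving it out of the blocked fit gave 25 higher and 0 lower, beside 8.12% and 5.75% of all genes. Splenic macrophage markers averaged 5.13 to 5.77 in the control CD24+ arrays and 5.67 to 7.20 in the control CD172a+ arrays. Of these 10 markers 1 was lower, Adgre1 (4.46 against 9.03), or 4 with the block, beside 3.16% and 6.9% of all genes. Adgre1 had the widest difference, -4.57, while the list median was -0.55, with 8 markers below 0 and 2 above. The part of these markers in the members' difference was not tested.

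**Figure D1:**
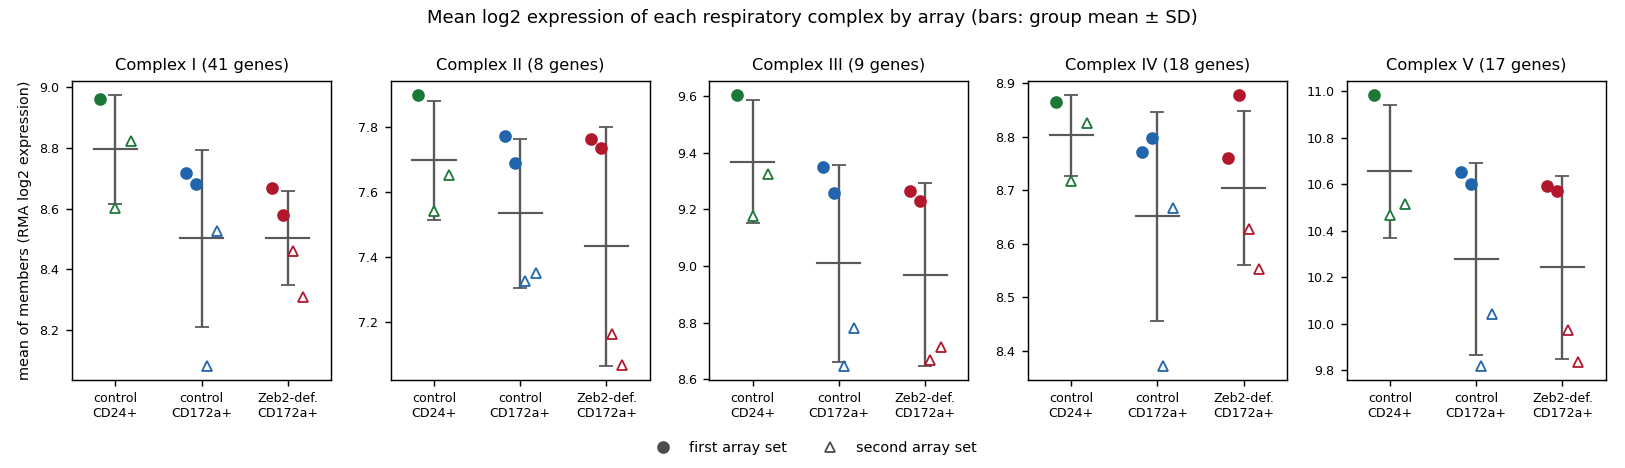
Mean log2 expression of the members of each complex (vertical axes, cut to the data range) in each of the 11 arrays, by group. Filled circles are the first array set, open triangles the second, and bars give the group mean ± SD. In every complex the second-set CD172a+ arrays of both genotypes lie lowest, and for complex V control CD24+ averaged 10.66 ± 0.29 against 10.28 ± 0.41 for control CD172a+ and 10.24 ± 0.39 for labelled Zeb2-deficient cells.

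Averaged over all members, the control CD24+ arrays read 9.28, 8.93 and 9.08, and the control CD172a+ arrays 9.06, 9.03, 8.44 and 8.75. The third control CD172a+ array was the lowest of the 11. Within the first set the CD24+ array lay above both CD172a+ arrays, and within the second set both CD24+ arrays did. Without the third control CD172a+ array the blocked fit gave 27 members higher and 3 lower, beside 8.08% and 7.16% of all genes.

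By complex, the median difference between control CD24+ and control CD172a+ was 0.29 for complex I, 0.23 for II, 0.35 for III, 0.15 for IV and 0.31 for V. Single arrays moved these medians by over 1.5 times. Without control CD172a+ replicate 3 the median was 0.14 over all members, 0.16 for complex I, 0.12 for II and 0.10 for IV, and without replicate 4 it was 0.11 for III. Without control CD24+ replicate 1 it was 0.16 over all members, 0.09 for II and 0.18 for V, and without replicate 2 it was 0.37 for II and 0.48 for V. Within the first set the medians of complexes I to V were 0.27, 0.26, 0.30, 0.11 and 0.40, and within the second 0.28, 0.32, 0.46, 0.24 and 0.47. All 9 members of complex III and all 17 of complex V had a difference above 0, as did 35 of 41 in complex I, 7 of 8 in complex II and 14 of 18 in complex IV. With the array set as a block the medians were 0.30, 0.31, 0.48, 0.15 and 0.47 in the same order. In that fit 12, 3, 3, 3 and 10 members were higher. These were 29.3%, 37.5%, 33.3%, 16.7% and 58.8% of each complex, beside 8.55% of all genes. The 1 lower member was Sdhaf1 of complex II, beside 6.9% of all genes. Differences between complexes were not tested. The 74 subunits had a median of 0.29, with 70 above 0, and the 11 assembly factors 0.10, with 8 above 0.

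**Figure D2:**
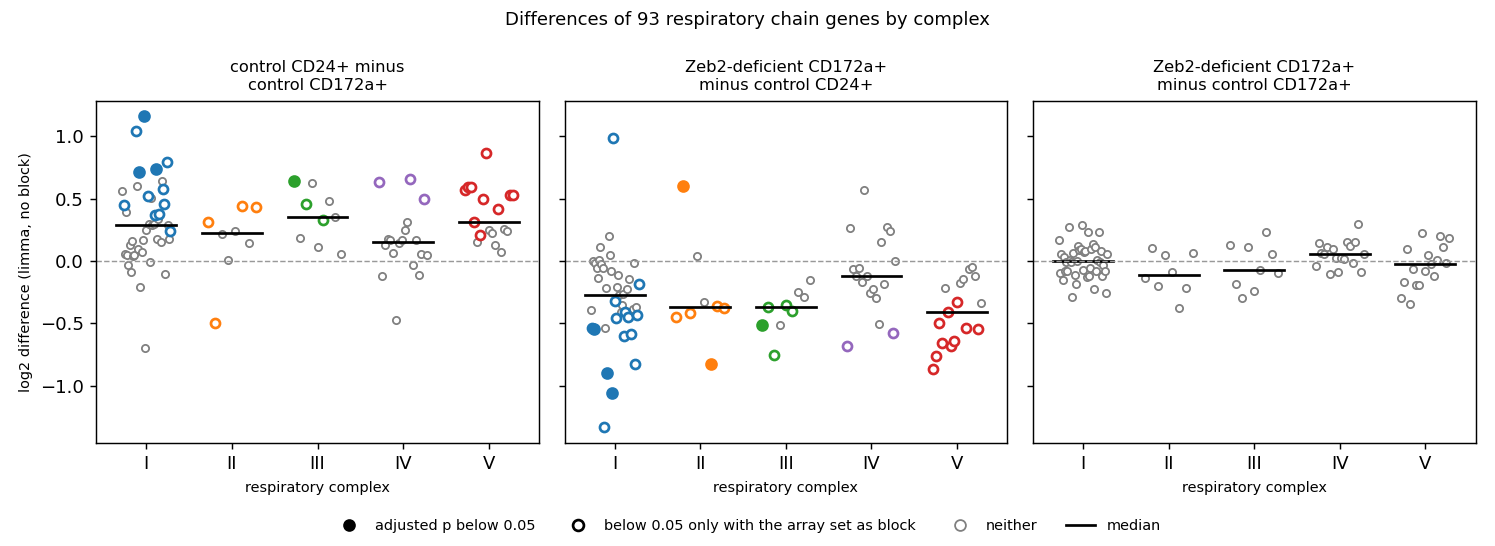
Log2 differences of the 93 members by complex (horizontal axis) in the 3 comparisons, from the limma fit over all 11 arrays. Filled points passed an adjusted p of 0.05, coloured rings passed only with the array set as a block, grey rings passed neither, and bars are medians. Most members of each complex lie above 0 in the left panel and below 0 in the middle one, which share the control CD24+ arrays, and around 0 in the right one, where none passed.

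Complex I is the largest complex, with a catalytic core, many accessory subunits and dedicated assembly factors. The members that passed over all arrays were 1 accessory subunit and 2 assembly factors. Ndufb9, an accessory subunit of the membrane arm (probe set 10424340), read 9.40, 9.74 and 10.08 in control CD24+ and 9.18, 9.10, 8.84 and 8.88 in control CD172a+ arrays. The groups did not overlap, and the difference was 0.74 (SE 0.164, limma adjusted p = 0.0205), or 0.26 within the first set and 1.05 within the second.

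Ndufaf6 and Ndufaf2 act in building complex I and are not part of the finished enzyme. Ndufaf6 (probe set 10511501) read 7.37, 6.33 and 6.75 in control CD24+ against 5.86, 5.81, 5.25 and 5.71 in control CD172a+ arrays, the widest called difference among members at 1.16 (SE 0.235, adjusted p = 0.0124). Ndufaf2 (probe set 10412054) read 7.50, 7.75 and 7.97 against 7.22, 7.10, 6.61 and 7.19 (difference 0.71, SE 0.17, adjusted p = 0.0304). Neither pair of groups overlapped. The difference was 1.54 within the first set and 1.06 within the second for Ndufaf6, and 0.34 and 0.96 for Ndufaf2. Leaving out control CD24+ replicate 2 left calls for Ndufaf6 and Cyc1 alone, and leaving out replicate 3 left Ndufaf6 and gave a lower call for Sdhaf1. Ndufb9 and Ndufaf2 also missed the threshold when only these groups were fitted, at adjusted p = 0.0623 and 0.0812.

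The other assembly factors of complex I did not follow them. Ndufaf7, a methyltransferase that acts in complex I assembly, was 0.70 below control CD172a+ (adjusted p = 0.409, and 0.0563 with the block), and Ndufaf1, Ndufaf3, Ndufaf4 and Ndufaf5 did not pass either way. The blocked fit without the third control CD172a+ array did call Ndufaf7 lower. With the block it was also called higher in labelled Zeb2-deficient than in control CD24+ cells. Ndufa9, a subunit of the Q module, read 8.88, 8.89 and 8.80 in control CD24+ and 8.52, 8.27, 7.48 and 7.0 in control CD172a+ arrays. The groups did not overlap, but the difference of 1.04 (SE 0.441) passed only with the block (1.2, SE 0.247, adjusted p = 0.00513 against 0.263). Of the 6 measured core subunits, 5 had a difference above 0. Ndufs1, the large iron-sulfur subunit, and Ndufs8 passed with the block (0.43 and 0.97), while Ndufs3, Ndufs7, Ndufv1 and Ndufv2 did not.

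**Figure D3:**
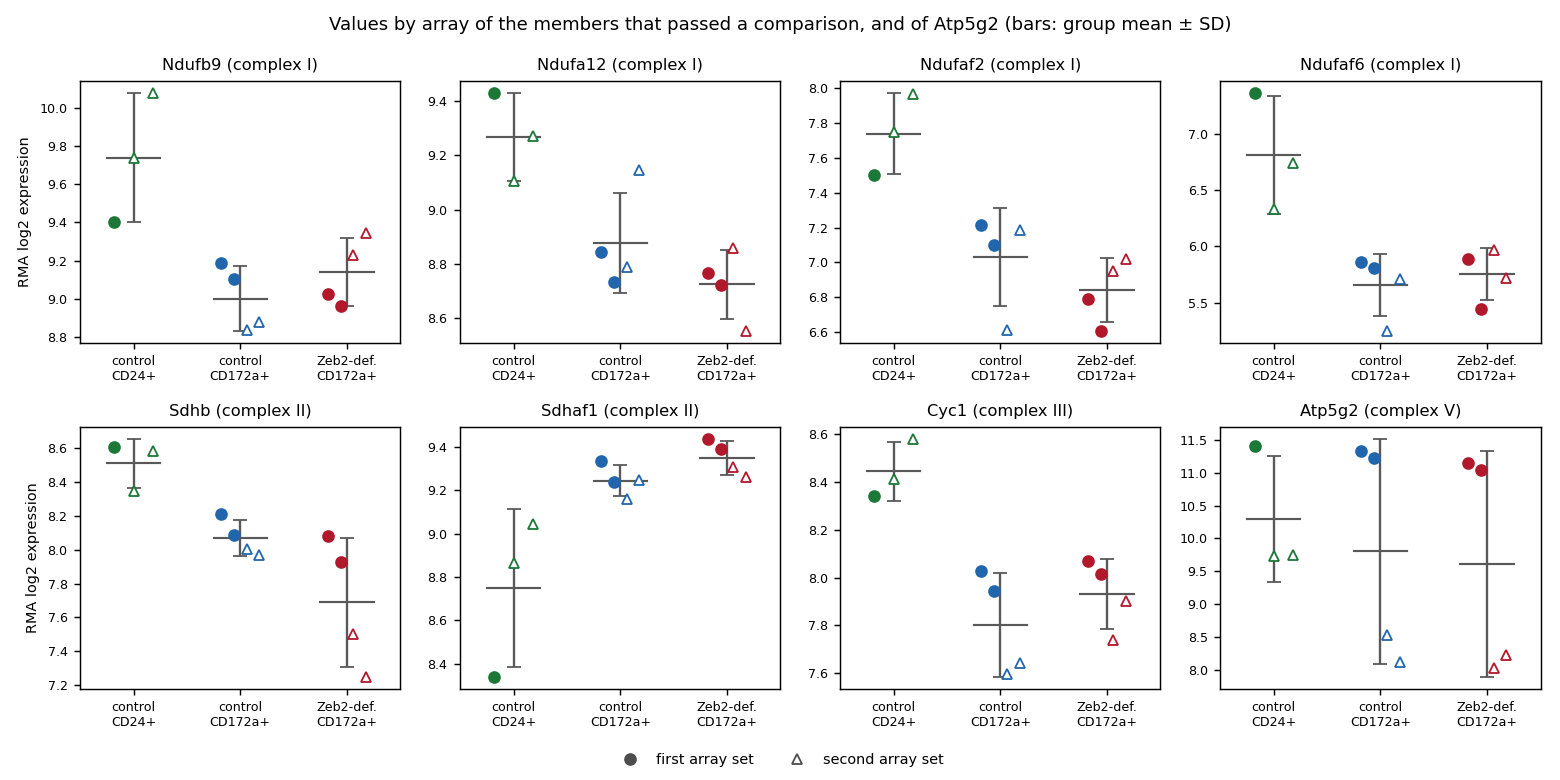
RMA log2 expression (vertical axes, cut to each gene's range) by array for the 7 members that passed a comparison over all arrays and for Atp5g2. Filled circles are the first array set, open triangles the second, and bars give the group mean ± SD. The control CD24+ arrays of Ndufb9, Ndufaf2, Ndufaf6 and Cyc1 lie above all CD172a+ arrays, those of Sdhaf1 lie below, and Atp5g2 splits by array set in all 3 groups.

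Complex II is succinate dehydrogenase, shared with the TCA cycle, and 0 of its 8 members passed over all arrays. With the block, Sdha, which carries the flavin, Sdhb, which carries the iron-sulfur clusters, and the membrane anchor Sdhd were higher in control CD24+ cells, by 0.38, 0.50 and 0.63 (limma adjusted p = 0.0272, 0.0195 and 0.00105). The anchor Sdhc differed by 0.32 (adjusted p = 0.282). Sdhaf1, which protects the iron-sulfur clusters of Sdhb during assembly (probe set 10561907), ran the other way. It read 8.34, 8.86 and 9.04 in control CD24+ and 9.34, 9.24, 9.16 and 9.25 in control CD172a+ arrays. The groups did not overlap, and the difference of -0.50 (SE 0.145) had an adjusted p of 0.0752 without and 0.0284 with the block. The first-set CD24+ array was the lowest, and the difference was -0.95 within the first set and -0.25 within the second.

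Complex III was led by Cyc1, the cytochrome c1 that passes electrons to cytochrome c (probe set 10424825). It read 8.34, 8.41 and 8.58 in control CD24+ and 8.03, 7.94, 7.59 and 7.64 in control CD172a+ arrays. The groups did not overlap, and the difference was 0.64 (SE 0.132, limma adjusted p = 0.0133), with 0.36 within the first set and 0.88 within the second. With the block Uqcrc2, a core protein, and Uqcr11, a small subunit, also passed (0.35 and 0.77, adjusted p = 0.0379 and 0.000344). Uqcrfs1, the Rieske iron-sulfur protein, differed by 0.48 and Uqcrb by 0.63 without passing in either fit. Uqcrb did pass, in the fit without the block, when control CD172a+ replicate 4, its highest value of that group, was left out.

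Complex IV, cytochrome c oxidase, had the smallest median. Of its 10 subunits with wide expression all had a difference above 0 (median 0.17), and 0 passed over all arrays. Cox4i1, Cox7b and Ndufa4 passed with the block, at 0.82, 0.73 and 0.57 (adjusted p = 0.0337, 0.049 and 0.0225). Cox7b read 11.78, 11.58 and 11.67 in control CD24+ against 11.40, 11.40, 10.02 and 11.27 in control CD172a+ arrays, where the third array stood 1 log2 unit or more below the others. Cox5a, Cox5b, Cox6a1, Cox6b1, Cox6c, Cox7a2 and Cox8a differed by 0.06 to 0.25 and did not pass. Cox7a2l, which ties complexes III and IV into supercomplexes, was 0.23 lower within the first set and 0.81 higher within the second. It did not pass over all arrays or with the block. It did pass in the second set fitted alone and in the blocked fit without control CD24+ replicate 1.

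Among the paired isoforms that are members, the forms known from heart, muscle, lung or testis gave no call over all arrays or with the block. Cox6a2 was left out of the members, so this statement does not cover it. Cox4i2, the oxygen-responsive partner of Cox4i1, lay between 4.88 and 5.73 on all 11 arrays, Cox7b2 between 2.96 and 3.67, Cox8b between 4.49 and 5.34, Cox8c between 4.80 and 5.55, and Ndufa4l2 between 4.41 and 5.23. These 5 are the members that averaged below the median gene. Cox7a1, the heart and muscle partner of Cox7a2, lay between 5.34 and 5.97. Cox6b2, known from testis, reached 6.15 to 7.60, with a control CD24+ minus control CD172a+ difference of -0.47 (SE 0.331, limma adjusted p = 0.614). Without the third control CD172a+ array the blocked fit did call it, here and between labelled Zeb2-deficient and control CD24+ cells.

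Complex V has a membrane rotor and stalk and the catalytic F1 head. Its 5 measured F1 members had a median difference of 0.57, and 0 of 17 complex V members passed over all arrays. With the block 10 of 17 were higher (58.8%, beside 8.55% of all genes), among them the catalytic core subunits Atp5a1 (0.73), Atp5b (0.71) and the central stalk subunits Atp5c1 (0.71) and Atp5d (0.50). Atp5b read 10.69, 10.50 and 10.24 in control CD24+ and 10.32, 10.24, 9.68 and 9.33 in control CD172a+ arrays. These groups overlapped over all arrays by 1 CD24+ value of the second set, but not within either set. The peripheral stalk genes Atp5o and Atp5pb and the dimer subunit Atp5k were 0.67, 0.59 and 0.47 higher in the same fit.

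The genes Atp5g1, Atp5g2 and Atp5g3 encode the same mature subunit c, which forms the rotor ring, behind different import sequences. Atp5g3 was the most separate, at 11.37, 10.76 and 10.88 in control CD24+ and 10.50, 10.56, 9.40 and 10.09 in control CD172a+ arrays. Its groups did not overlap, and the difference was 0.86 (SE 0.257, limma adjusted p = 0.0808, and 0.00112 with the block). Atp5g2 read 11.41, 9.73 and 9.75 against 11.33, 11.22, 8.53 and 8.13, so that the array set moved it more than the group did. Its difference was 0.13 within the first set and 1.41 within the second. Atp5g1 differed by 0.40 and 0.33 within the sets.

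**Figure D4:**
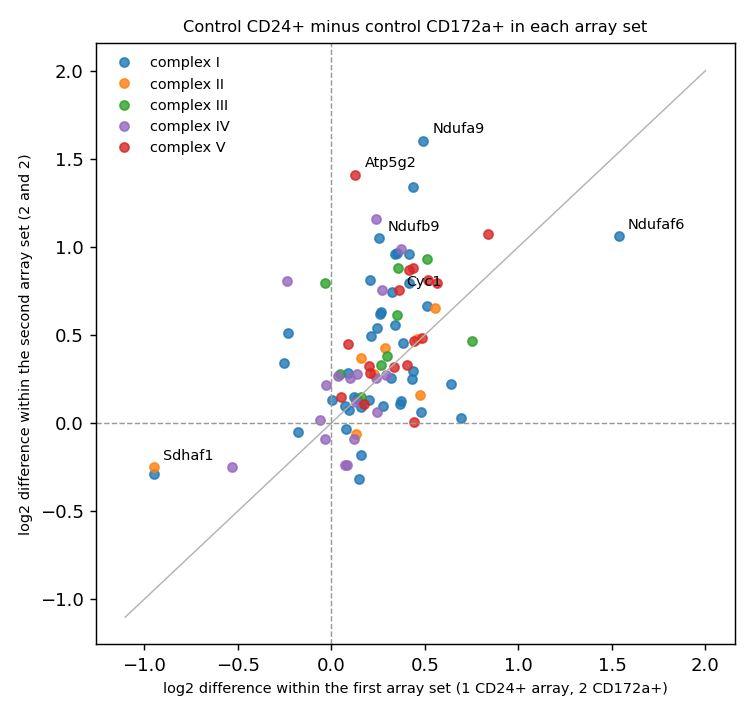
Control CD24+ minus control CD172a+ log2 difference of each member within the first array set (horizontal axis) and within the second (vertical axis), coloured by complex. The grey diagonal marks equal differences and the dashed lines 0. Of 93 members, 80 have the same sign in both sets, beside 12306 of 19938 genes, and Ndufa9 and Atp5g2 lie far above the diagonal.

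Within the sets, 82 members had a difference above 0 in the first and 81 in the second, beside 50.6% and 42.2% of all genes. The sets hold different arrays, and 80 of 93 members had the same sign in both, beside 12306 of 19938 genes. Because most members lay above 0 in each set, many of these matches follow from those counts alone. The first set fitted alone compares 1 control CD24+ array, assumed to vary like the other groups, whose 4 arrays supply all of the spread. It called 4 members higher and 2 lower, beside 3.49% and 4.14% of all genes, and the second set called 15 higher and 0 lower, beside 5.15% and 3.64%.

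Labelled Zeb2-deficient CD172a+ cDCs did not differ detectably from control CD172a+ cDCs in any member. This comparison asks what CD11c-Cre with the floxed Zeb2 allele does to the respiratory chain of CD172a+ cDCs. Limma called 0 of 93 members, beside 0.0401% of all genes higher and 0.01% lower. It also called 0 when the fit was blocked by array set, beside 0.0903% and 0.0552%. At an unadjusted p below 0.05 there were 0 higher and 1 lower, beside 1.99% and 1.89% of all genes. The median difference was 0.00, with 47 of 93 above 0, beside 51.5% of all genes. The groups overlapped in every member, while 1.09% and 1.01% of all genes did not overlap on the higher and lower side. Of the marker lists, B cell markers averaged 4.86 to 5.18 in control CD172a+ and 5.35 to 5.71 in labelled Zeb2-deficient arrays, and monocyte markers 7.47 to 8.29 and 6.68 to 7.50. Of these, 1 of 9 B cell markers (Fcer2a) was higher and 1 of 8 monocyte markers (Lyz2) lower in the labelled Zeb2-deficient group. The B cell list had a median difference of 0.01, with 5 above 0 and 4 below, and only Ms4a1 and Fcer2a differed 2-fold or more. The monocyte list had a median of -0.87, with 1 above 0 and 7 below. The part of these markers in the members' values was not tested. The medians were 0.00 for complex I, -0.11 for II, -0.07 for III, 0.05 for IV and -0.02 for V.

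A missed threshold does not show that the groups are alike, so the intervals matter. The 95% interval of the difference lay within 0.5 log2 units of 0 for 36 of 93 members and within 1 unit for 85, with a median distance of 0.45 from estimate to bound. With the array set as a block these counts were 62 and 93, and the median distance was 0.29. A 2-fold difference thus lay outside the interval of every member in the blocked fit and of most over all arrays. The block was defined from these same values, so its intervals may be too narrow, and each interval is for 1 gene at a time.

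The member with the smallest p in this comparison was Sdhb (probe set 10509858). It read 8.21, 8.09, 8.0 and 7.97 in control CD172a+ and 8.08, 7.93, 7.50 and 7.25 in labelled Zeb2-deficient arrays. The groups overlapped, the 2 lowest values being second-set arrays of the labelled Zeb2-deficient group, and the difference was -0.38 (95% interval -0.75 to -0.01, limma adjusted p = 0.998, and 0.313 with the block). It was -0.15 within the first set and -0.61 within the second. Uqcr11 differed by -0.30 (adjusted p = 0.361 with the block) and Atp5d by -0.34 (0.472), while Cox8c, Ndufaf7 and Ndufa6 differed by 0.30, 0.29 and 0.28 and did not pass.

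Labelled Zeb2-deficient CD172a+ cDCs against control CD24+ cDCs share the latter's arrays with the first comparison, so the values are given side by side and not as a second line of evidence. Of the members 1 was higher and 5 lower in the labelled Zeb2-deficient cells (1.08% and 5.38%), beside 3.25% and 3.92% of all genes. The median was -0.30, against 0.03 for all genes. The groups did not overlap for 2 members on the higher side and 19 on the lower, beside 8.9% and 8.99% of all genes. In the blocked fit 2 were higher and 36 lower (2.15% and 38.7%, beside 7.52% and 10.7%). The complex medians over all arrays were -0.27, -0.37, -0.37, -0.12 and -0.40 for complexes I to V. Fitted alone, the second set called 0 members higher and 17 lower (3.96% and 5.75% of all genes). The first set, again with 1 control CD24+ array and the spread of the other groups only, called 2 and 10 (4.24% and 4.75%). Without control CD24+ replicate 1 the median over all members was -0.16, and without labelled Zeb2-deficient replicate 4 it was -0.19. The blocked fit gave 3 and 41 without the third control CD172a+ array (8.37% and 12% of all genes) and 2 and 32 without the first control CD24+ array (6.2% and 9.82%).

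The lower members were Ndufaf6 (-1.06), Ndufaf2 (-0.90), Sdhb (-0.82), Ndufa12 (-0.54) and Cyc1 (-0.51), with limma adjusted p from 0.0075 to 0.0397. Ndufa12, an accessory subunit near the NADH-oxidising arm (probe set 10365887), read 9.43, 9.10 and 9.27 in control CD24+, 8.84, 8.73, 8.79 and 9.14 in control CD172a+ and 8.77, 8.72, 8.86 and 8.55 in labelled Zeb2-deficient arrays. All labelled Zeb2-deficient values lay below all CD24+ values. Sdhaf1 was the one higher, at 9.44, 9.39, 9.31 and 9.26 (difference 0.60, SE 0.145, adjusted p = 0.0293). Leaving out 1 array of either group at a time kept 1 to 5 of these 6 calls. Without control CD24+ replicate 1 only Ndufaf2 was kept, and Ndufb9 passed in addition. Without control CD24+ replicate 3 Ndufaf2 and Sdhaf1 were kept, without labelled Zeb2-deficient replicate 2 Ndufaf2 and Sdhb, and without its replicate 4 Ndufaf2, Ndufaf6 and Sdhb.

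The promoters of the called members that the RefSeq table holds are shown so that their sequence can be set beside these values. Each is the 250 bases before the annotated start, on the gene's strand, from the RefSeq promoter table on GRCm38.p6. Letters in capitals match the NRF1 motif GCATGCGC (reverse complement GCGCATGC) or the ETS-family motif CCGGAAG (reverse complement CTTCCGG), searched on both strands. NRF1 and the ETS factor GABP are known activators of respiratory chain genes.
Sdhb, chr4:140961021-140961270, plus strand: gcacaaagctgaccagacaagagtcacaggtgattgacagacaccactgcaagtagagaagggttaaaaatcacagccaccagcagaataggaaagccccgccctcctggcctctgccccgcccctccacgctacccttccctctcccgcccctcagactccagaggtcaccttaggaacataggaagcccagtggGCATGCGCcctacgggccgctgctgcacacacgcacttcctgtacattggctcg
Ndufa12, chr10:94198785-94199034, plus strand: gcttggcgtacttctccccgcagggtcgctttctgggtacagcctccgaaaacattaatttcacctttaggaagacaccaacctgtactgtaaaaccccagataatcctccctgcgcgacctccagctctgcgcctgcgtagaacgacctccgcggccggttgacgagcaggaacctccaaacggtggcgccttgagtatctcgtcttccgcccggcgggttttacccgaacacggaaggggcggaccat
Ndufaf2, chr13:108158626-108158875, minus strand: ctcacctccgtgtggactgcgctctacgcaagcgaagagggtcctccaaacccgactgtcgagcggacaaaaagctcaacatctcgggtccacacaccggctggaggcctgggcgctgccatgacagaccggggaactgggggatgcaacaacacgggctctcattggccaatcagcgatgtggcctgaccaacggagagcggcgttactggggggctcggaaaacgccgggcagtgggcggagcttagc
Sdhaf1, chr7:30322376-30322625, minus strand: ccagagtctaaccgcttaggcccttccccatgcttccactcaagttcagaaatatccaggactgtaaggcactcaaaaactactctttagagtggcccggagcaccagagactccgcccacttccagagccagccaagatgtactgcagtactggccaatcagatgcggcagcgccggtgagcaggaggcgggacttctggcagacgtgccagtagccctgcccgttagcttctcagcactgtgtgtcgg
Sdhb holds the NRF1 letters 54 bases before its start, and the other 3 windows hold none of the motifs searched.

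Of the 93 members 77 matched the promoter table by Entrez identifier. The NRF1 letters stood in 9 of them (11.7%), beside 3.23% of 15562 array genes with a promoter, and the ETS letters in 14 (18.2%) beside 9.62%. The YY1 motif AAGATGGC (reverse complement GCCATCTT) was in 0 of 77, beside 1.61%. Among array genes with a GC content at or above the member median of 57.2%, the shares were 4.62% for NRF1 and 13.4% for ETS. A match is a description of letters and not a bound site.

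Of the 93 members 45 were lower in the second array set. With the group as a term in limma, 5 were higher as well, and the shares of all genes were 14% higher and 16% lower, a count that describes the sets only, since they were found from the same values. The median was -0.34 over the members and 0.04 over all genes. By complex the medians were -0.26, -0.35, -0.34, -0.22 and -0.53 for I to V. Over the CD172a+ arrays of both genotypes, all 4 values of the second set lay below all 4 of the first for 44 members and above them for 3, Atp5md, Ndufb6 and Ndufv2. The other 46 members overlapped. The share of all genes split in this way was not computed, so the count sets nothing apart about the members.

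**Figure D5:**
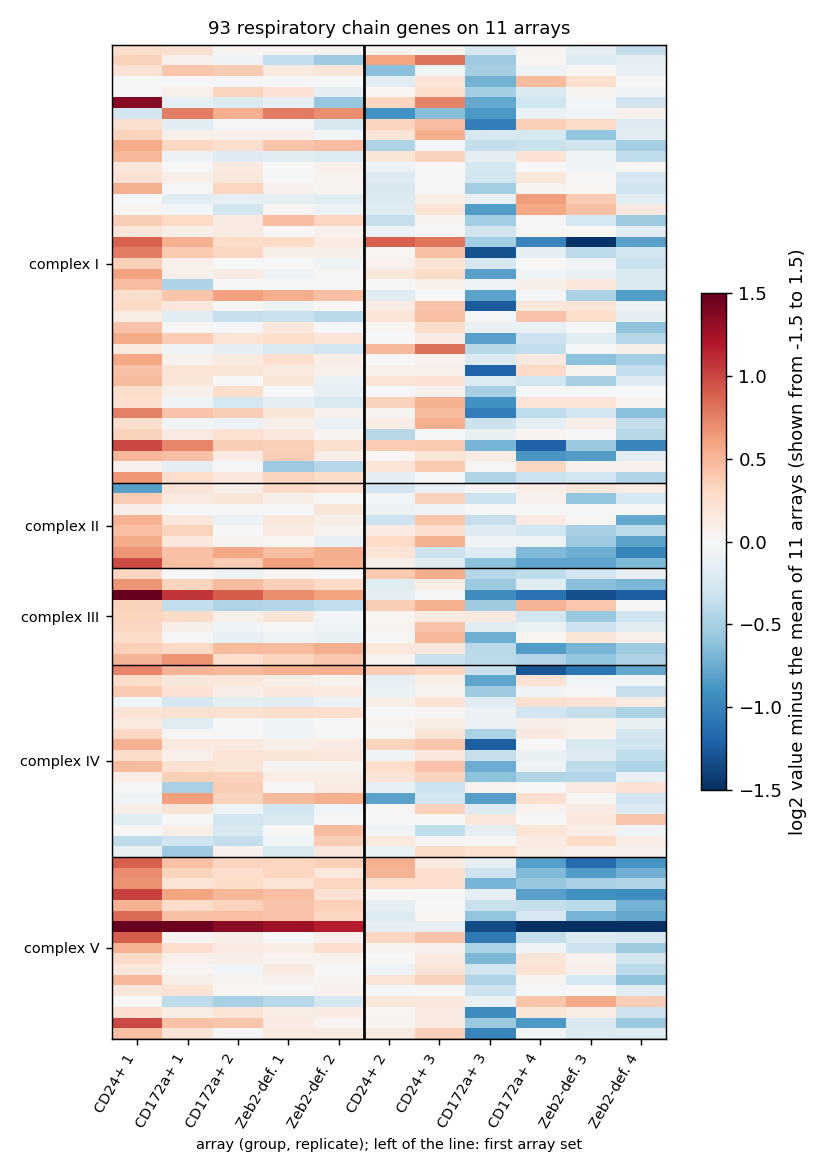
Each row is a member, grouped by complex, and each column an array; colour gives the log2 value minus the member's mean over the 11 arrays. Columns left of the vertical line are the first array set. Of the 93 members 74 are lower in the second set and 19 higher, beside 8475 and 11463 of 19938 genes. The rows of Atp5g2 and Uqcr11 show the widest contrast across the line.

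Atp5g2 showed the widest split. Its CD172a+ arrays lay from 11.04 to 11.33 in the first set and from 8.03 to 8.53 in the second, and the set difference was -2.63 (SE 0.181). All 3 of its probe sets gave like group differences, from 0.38 to 0.49 for control CD24+ minus control CD172a+. Uqcr11 followed at -1.87 (SE 0.0864), with 8.89 to 9.36 against 6.97 to 7.36, and Sdhd at -1.17 and Cox4i1 at -1.13. Among called members the set difference was -0.33 for Sdhb, -0.27 for Ndufaf6, -0.18 for Cyc1 and 0.10 for Ndufaf2. The promoters of the 3 members with the lowest set differences are shown with the same marking.
Atp5g2, chr15:102671048-102671297, minus strand: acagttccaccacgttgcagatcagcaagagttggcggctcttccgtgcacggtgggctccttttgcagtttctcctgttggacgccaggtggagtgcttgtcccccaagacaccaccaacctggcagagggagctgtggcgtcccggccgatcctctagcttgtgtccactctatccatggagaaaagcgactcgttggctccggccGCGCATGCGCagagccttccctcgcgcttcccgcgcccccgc
Uqcr11, chr10:80406822-80407071, minus strand: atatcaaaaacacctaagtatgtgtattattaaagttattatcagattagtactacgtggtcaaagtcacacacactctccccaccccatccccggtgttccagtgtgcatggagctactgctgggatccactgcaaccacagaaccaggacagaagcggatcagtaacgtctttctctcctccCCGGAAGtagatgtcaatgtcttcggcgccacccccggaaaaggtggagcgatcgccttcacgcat
Sdhd, chr9:50603850-50604099, minus strand: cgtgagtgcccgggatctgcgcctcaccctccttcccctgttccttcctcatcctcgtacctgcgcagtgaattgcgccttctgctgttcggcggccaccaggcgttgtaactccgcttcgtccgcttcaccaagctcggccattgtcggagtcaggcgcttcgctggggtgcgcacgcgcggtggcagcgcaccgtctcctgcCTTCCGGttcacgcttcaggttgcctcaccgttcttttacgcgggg
The Atp5g2 window holds overlapping NRF1 letters on both strands within 42 bases of its start, and the Uqcr11 and Sdhd windows hold the ETS letters 66 and 46 bases before theirs.

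Other mitochondrial and metabolic genes were read from fixed lists. Of 35 assembly factors and cofactors outside the prefixes, 3 were higher and 0 lower in control CD24+ than in control CD172a+ cells: Cycs, the electron carrier cytochrome c (1.07), Coa5 (0.96) and Atpif1, an inhibitor of the ATP synthase (0.86), with limma adjusted p of 0.00726, 0.000311 and 0.00564 and a list median of 0.09. These calls were 8.57% and 0% of the list, beside 3.25% and 3.16% of all genes. With the block 8 were higher and 1 lower (22.9% and 2.86%, beside 8.55% and 6.9% of all genes). Of 22 import genes 1, Timm23 (0.73, limma adjusted p = 0.0447), was higher (4.55%) and 0 lower, with a median of 0.29 and 21 above 0. With the block 9 import genes were higher (40.9%). Of 17 genes of the TCA cycle and pyruvate dehydrogenase 0 passed, with a median of 0.19. With the block 3 were higher and 1 lower (17.6% and 5.88%). Of 59 cytosolic ribosomal protein genes 0 passed, with a median of 0.07. With the block 4 were higher (6.78%), a share below the 8.55% of all genes.

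Glycolysis genes moved in both directions, with 4 of 19 higher and 2 lower in control CD24+ cells and a median of 0.36. These calls were 21.1% and 10.5% of the list, beside 3.25% and 3.16% of all genes. With the block 9 were higher and 4 lower (47.4% and 21.1%, beside 8.55% and 6.9% of all genes). Pgk1, a kinase that yields ATP in glycolysis, and Aldoc, an aldolase, were 1.40 and 0.94 higher, and Slc2a3, a glucose transporter, was 2.03 lower (adjusted p = 0.000152, 0.0178 and 0.000242). Of 14 regulators of mitochondrial biogenesis 1 was lower (7.14%), Tfeb (-1.04, limma adjusted p = 0.0216), and 4 with the block (28.6%). Ppargc1a and Myc were -1.72 and -1.26 and passed only with the block. Of 12 ubiquinone synthesis genes 1 was lower (8.33%), Coq8a (-0.59, limma adjusted p = 0.0496), and 2 with the block (16.7%). Between labelled Zeb2-deficient and control CD172a+ cells 0 genes of these 7 lists passed, with or without the block.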

How the data were processed

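Total RNA of sorted splenic cDCs was measured on 11 Affymetrix arrays, and the authors deposited RMA log2 values per probe set, per the submitters' processing notes. No source used here names the software version, the filters or a genome build. RMA normalizes between arrays and shrinks differences near background. Array medians lay between 5.45 and 5.52. Of 30177 probe sets, 21789 carried 1 symbol, and each of 19938 genes took its brightest one, a choice among several for 999 genes and 18 members. Groups came from the titles. Nothing in the labels says that replicates are separate animals. Xist was high in some arrays of each group and low in others, so the spread over all arrays holds that difference. The spread within an array set may be technical.

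The main tests came from 1 limma fit (version 3.58.1, R 4.3.3) over the 11 arrays, with group as the only factor, Benjamini-Hochberg adjustment over all 19938 genes and a two-sided threshold of 0.05, after a check on simulated data. Alternative limma fits added the array set or the replicate number as a block, or used each array set alone, only the groups compared, or all arrays but 1. The members and lists were chosen with earlier results of these data known. Genes were named by rule: members past the threshold, the 3 of smallest p per complex and comparison, and the paired isoforms. From each other list at most 3 genes of smallest p were named. Genes named beyond that were chosen after their values were seen, as were the fits within array sets and with single arrays left out of the blocked fit. Same-numbered labelled Zeb2-deficient and control CD172a+ arrays deviated together from their group means (r from 0.442 to 0.68 over genes in 4 pairs), but so did differently numbered arrays of the same array set (r from 0.496 to 0.699), whereas pairs with control CD24+ replicate 2 did not (-0.445 and -0.361). Figures used Python 3.11.15, pandas 2.3.3, numpy 2.4.6 and matplotlib 3.10.9.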

Additional observations from a re-analysis of the deposited data

Results flagged for a closer look

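Values that stood apart from the rest of their group, by the gap to the nearest value divided by the group's range, were found in 3 of 64 groups of 4 arrays tested, all in control CD172a+ cells. Such a gap arises by chance in about 1 of 20 groups. Atp5k was 10.12 in the third array against 10.61 to 10.65 in the others. Cox7b was 10.02 in the same array against 11.27 to 11.40. Uqcrb was 10.07 in the fourth array against 9.03 to 9.19.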

How the results depend on the processing

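The count of members called between control CD24+ and control CD172a+ cells was 4 over all arrays. It was 32 with the array set as a block, 30 and 25 in that fit without the third control CD172a+ or the first control CD24+ array, 15 in the second array set alone, and 2 when only both groups were fitted or only subunits counted. Leaving out 1 array at a time gave 2 to 5. Between labelled Zeb2-deficient and control CD24+ cells the count was 6. It was 38 with the block, 44 and 34 in that fit without the same arrays, 12 and 17 in the first and second set alone, 3 with a mean-variance trend and robust moderation, and 3 among subunits. Leaving out 1 array of the groups compared at a time gave 2 to 5. Leaving out 1 control CD172a+ array, which adds to the shared spread, gave 9 for replicate 3 and 5 or 6 for the others. Between labelled Zeb2-deficient and control CD172a+ cells the count was 0 in every alternative run. The cause of these shifts was not tested, except that the subunit count drops the assembly factors.

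With the replicate number as a block the counts were 5, 0 and 9 for control CD24+ against control CD172a+, labelled Zeb2-deficient against control CD172a+ and labelled Zeb2-deficient against control CD24+, and Cyc1 lost its call in the last (adjusted p = 0.0551). Of 348 alternative values of the medians none moved by more than 1 SD between arrays, a wide limit under which single arrays still moved medians by over 1.5 times. Among alternative values of named members none reversed a call, 48 lost one, 52 gained one and 766 kept direction and side of the threshold, and 1 moved by more than the spread (Cox7b between labelled Zeb2-deficient and control CD24+ cells, -0.74 with the block and without the first control CD24+ array).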

Other observations

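Probe sets shared with other symbols were not in the gene-level fit and are given as values. The 3 probe sets of Cox7c, a complex IV subunit, shared with a pseudogene symbol, averaged 11.33 to 11.41 in control CD24+, 11.16 to 11.23 in control CD172a+ and 11.18 to 11.24 in labelled Zeb2-deficient cells. The 2 probe sets of Ndufb4, a complex I accessory subunit shared with Ndufb4b, averaged 8.76 and 8.98, 8.71 and 8.92, and 8.57 and 8.77 in the same groups.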
